A study of Homo sapiens with 8 samples.

Results

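A set of 10 genes, FSTL1, AIDA, APCDD1L, GPD1L, CDC37L1, PPM1E, SCAMP5, FILIP1L, IL6R and EIF4EBP2, were followed across the 4 siRNA groups of a knockdown experiment. They were chosen from these same libraries by their log2 fold changes, large with one siRNA against ESRRA and smaller or absent with the others. They are 10 of 23368 gene symbols in the count table, all 10 passed the filter on low counts, and 13395 symbols did. Their differences between groups chose them, so those differences are given as values with a standard error (SE) and without a test. The list carries no numeric threshold.

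The cells were MDA-MB231 (MDA-MB-231), an established human breast cancer line, grown in DMEM with FCS and transfected with INTERFERin. One group received a control siRNA (siC) and the other 3 groups received 1 of 3 siRNAs against ESRRA (siE1, siE2 or siE3), with 2 libraries per group and 8 in all. The controls thus share the line, the reagent and the transfection with the siRNA groups, and no source used here gives the time after transfection. ESRRA encodes the orphan nuclear receptor ERRα. A library held 21835995 to 25880548 counts on genes. The labels do not say that replicates were separate cultures, so SE and p-values measure only how much these libraries varied, which could be technical variation.

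Small interfering RNAs are loaded into Argonaute, and the guide strand directs cleavage of an mRNA to which it pairs along its length. The bases near the 5′ end of a guide, its seed, can also pair with short matches in the 3′ UTR of other mRNAs and lower them, as microRNAs do. For that reason several siRNAs of different sequence are commonly used against one target. The siRNA sequences were not used here.

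ESRRA itself could check only the control label against the ESRRA siRNA labels, not which of the 3 siRNAs a library received. Its level, as CPM (each count scaled to the TMM library size), was 62.9 and 64.8 under siC, 10.3 and 10.5 in the siE1 pair, 8.86 and 7.25 in the siE2 pair, and 8.55 and 8.31 in the siE3 pair. The control libraries lay above all 6 others. Of the 8 markers listed for the line, VIM stood at 3165 to 4058 CPM and S100A4 at 1.78 to 8.54, and ESR1, PGR and CDH1 had at most 3 counts in any library. KRT8 and KRT18, listed as low, were at 217 to 328 CPM. Blood cell markers (5) summed to at most 0.813 CPM, with CD3E and HBB at 0. Endothelial markers (4) summed to 1.87 to 2.06 CPM under siC and 3.94 to 4.02 with siE1. Fibroblast markers (6) summed to 7.07 to 7.67 CPM under siC and 11.9 to 13.4 with siE2, with DCN and LUM at 0. Members of that list did not move alike from siC to siE2. Mean COL1A1 went from 5.97 to 9.31 CPM and PDGFRB from 0.84 to 3.11, while COL3A1 went from 0.57 to 0.13. The part of all these markers in the levels below was not tested. In bulk RNA, fewer cells of a type and less RNA per cell cannot be told apart.

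Short words in the 3′ UTR were searched first, because they are the feature of these genes that the list did not use. For each siRNA, every word of 7 bases present in at least 100 of 12320 searched genes, with the 10 listed genes left out, was placed in order. The order used the difference in mean log2 fold change, that siRNA against the mean of the other 2, between genes with and without the word, divided by its SE. It is an order only, with no p-value. The word at the lower end was GACCAGA for siE1, TCTGCTA for siE2 and TCTCAGA for siE3. Genes with GACCAGA were lower by a mean difference of -0.20 (SE 0.0158, 1171 genes with it), those with TCTGCTA by -0.16 (SE 0.0144, 1203 genes) and those with TCTCAGA by -0.10 (SE 0.00982, 1984 genes). The 3 words did not stand out alike. For siE1 and siE2, the words at places 2 and 3 overlapped the leading one. For siE3, the lead was narrow, at -10.6 SE, and the next words were CCCAGGG at -9.87 SE and then CCCACCC at -9.63 SE, which do not overlap it.

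The same words, moved by 1 base to the 5′ side, were then looked up in the ESRRA transcript, a step chosen after the words were seen. Of the leading words themselves, only GACCAGA of siE1 occurred there, and TCTGCTA and TCTCAGA did not. For each siRNA, 1 of the 4 possible shifted words occurred there. For siE1 it was TGACCAG, at place 2 of the order. For siE2 it was ATCTGCT, also at place 2. For siE3 it was ATCTCAG, at place 66. Such words are common: these 3 occurred in 28.3%, 25.6% and 29.8% of all searched transcripts, and the other 9 shifted words in 10.7% to 38.4%, so nothing is read from 1 of 4 being in ESRRA. Below are the ESRRA stretches with the shifted word in capitals, from the GENCODE transcript, 5′ to 3′, with the position of its first base in the 2283 bases. Positions 999 and 833 lie before the 3′ UTR and 1816 lies in it. TGACCAG also occurred at position 224. They are shown because ESRRA is the gene the siRNAs were directed at.
ESRRA at 999, siE1 word: cgctgtcTGACCAGatgtcag
ESRRA at 833, siE2 word: gtgtctcATCTGCTggtggtt
ESRRA at 1816, siE3 word: gaaacctATCTCAGggaggga

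Of the 10 listed genes, 8 were lower with the siRNA that sets them apart, and all 8 held the leading or the shifted word of that siRNA in the 3′ UTR. The leading word alone was in 2 of 2 of them for siE1, 3 of 4 for siE2 and 1 of 2 for siE3. PPM1E and IL6R held only the shifted word, which was chosen after the order was seen. Sites in each of the 8 follow, with the leading word, the shifted word or the 8 bases they form together in capitals, and the place of the first capital counted from 1 at the base after the stop codon.
FSTL1 at 1330, siE1: aacaagaTGACCAGAtttgatc
AIDA at 643, siE1: ttccagaTGACCAGAttgtttt
GPD1L at 1203, siE2: ttagaaaATCTGCTttaactt
GPD1L at 2699, siE2: ggttcttATCTGCTAgcctttt
CDC37L1 at 342, siE2: gggaggcATCTGCTAcagtctc
PPM1E at 4011, siE2: tttacaaATCTGCTctacatc
SCAMP5 at 702, siE2: cagttttATCTGCTcctgaga
SCAMP5 at 1017, siE2: gcttgatTCTGCTAccctgac
IL6R at 91, siE3: ccagcttATCTCAGgggtgtg
IL6R at 619, siE3: atacagtATCTCAGggcctgg
EIF4EBP2 at 5075, siE3: ctgggacTCTCAGAccttacc

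FSTL1 and AIDA each shared 9 bases with ESRRA around the siE1 word, TGACCAGAT. Both IL6R sites shared 10 bases with ESRRA around the shifted siE3 word, TATCTCAGGG. CDC37L1 shared 8 bases, CATCTGCT, and the other sites shown shared 6 or 7. The shifted words were taken as those that ESRRA holds, so at sites with a shifted word 7 bases are shared by that choice. How often other genes share longer stretches with ESRRA was not counted. The 2 listed genes that were higher with their siRNA, APCDD1L with siE1 and FILIP1L with siE2, held neither word of it. The 3′ UTR searched for FILIP1L had only 91 bases, and most searched genes also lacked both words of siE1 or of siE2. Nothing is therefore read from their absence.

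These matches have a high background. Either word of siE1 was in the 3′ UTR of 16.3% of 12330 searched genes, either word of siE2 in 18.4% and either word of siE3 in 25.3%. Among genes with a 3′ UTR of at least 2000 bases the shares were 32.9%, 38.3% and 51.7%, and the listed genes had a median 3′ UTR of 2658 bases against 1137 for all searched genes. Words of another siRNA were also present: outside the genes just shown for that siRNA, 4 of 6 listed genes held a siE2 word, 4 of 8 a siE3 word and 1 of 8, SCAMP5, a siE1 word. Among genes set apart by one siRNA (different from siC and from both other siRNAs in the same direction, each at an edgeR adjusted p under 0.05), the listed ones left out, either siE1 word was in 31.9% of the 1372 lower and 11.1% of the 1042 higher genes. For siE2 the shares were 27.98% of 1662 and 13.1% of 1383, and for siE3 48.1% of 674 and 23.0% of 518. The words were ordered on the same fold changes, so these last shares are no independent support. Whether the words have a part in the levels of the listed genes was not tested.

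**Figure D1:**
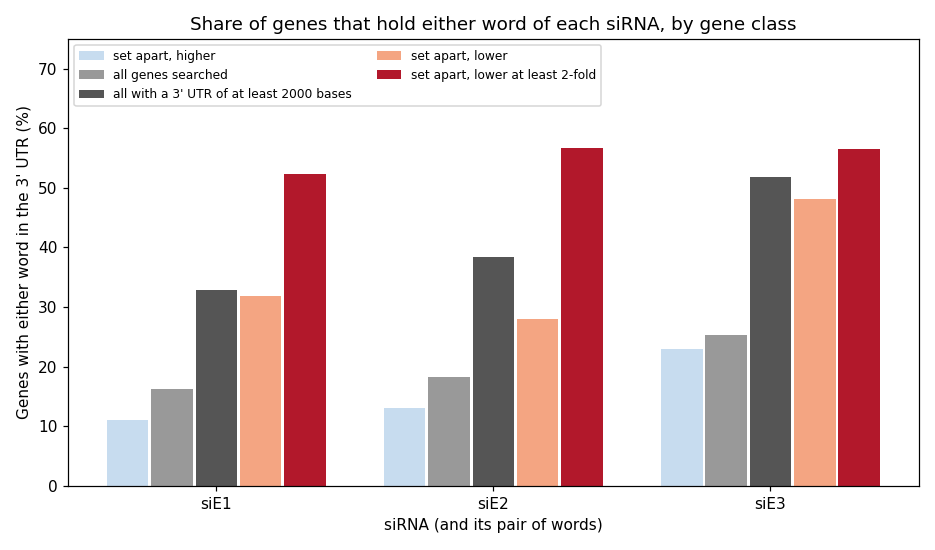
Bars give the percentage of genes with either word of a siRNA in the 3′ UTR, by gene class, for siE1, siE2 and siE3. Genes set apart lower at least 2-fold from the mean of the other 2 siRNAs held a word in 52.3%, 56.6% and 56.5% of cases, against 16.3%, 18.4% and 25.3% of all searched genes; for siE3 the share among all long 3′ UTRs, 51.7%, is close to it.

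The siE1 genes were FSTL1, AIDA and APCDD1L. FSTL1 encodes a secreted glycoprotein of the SPARC family that binds BMP ligands. Its level was 497.9 and 482.2 CPM under siC, 97.5 and 100.2 in the siE1 pair, 459.3 and 469.9 in the siE2 pair, and 556.9 and 540.8 in the siE3 pair. Both siE1 libraries lay far below the other 6, and siE3 lay above the controls. The log2 fold change against siC was -2.31 (SE 0.0442) with siE1, -0.08 (SE 0.0408) with siE2 and 0.16 (SE 0.0407) with siE3, and the siE1 mean was 20.2% of the control mean. The siE1 libraries still held 2159 and 2597 counts of FSTL1. Its 3′ UTR also holds the siE2 word TCTGCTA and both siE3 words, while its level with those siRNAs was 94.8% and 112% of the control mean.

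AIDA encodes a protein named for its binding to axin. It stood at 20.2 and 20.6 CPM under siC, 4.47 and 4.86 in the siE1 pair, 15.2 and 15.9 in the siE2 pair, and 21.9 and 23.4 in the siE3 pair. The siE1 libraries were the lowest, siE2 lay between them and the controls without overlap, and siE3 was slightly above the controls. Fitted log2 fold changes were -2.12 (SE 0.105), -0.39 (SE 0.0873) and 0.15 (SE 0.0839) for siE1, siE2 and siE3. AIDA also holds siE2 words, ATCTGCT and TCTGCTA.

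APCDD1L, a homologue of the Wnt inhibitor APCDD1, went the other way. Its level was 2.88 and 3.73 CPM under siC, 17.7 and 14.7 in the siE1 pair, 4.37 and 5.14 in the siE2 pair, and 4.39 and 4.33 in the siE3 pair. The siE1 libraries lay above all others by a wide margin, and siE2 and siE3 overlapped each other just above the controls. Its log2 fold changes were 2.28 (SE 0.151), 0.52 (SE 0.180) and 0.40 (SE 0.184). APCDD1L rests on 63 and 87 control counts. Its 3′ UTR holds 2 sites of the siE3 word TCTCAGA, and its level with siE3 was above the controls. APCDD1 itself had no count in any library.

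**Figure D2:**
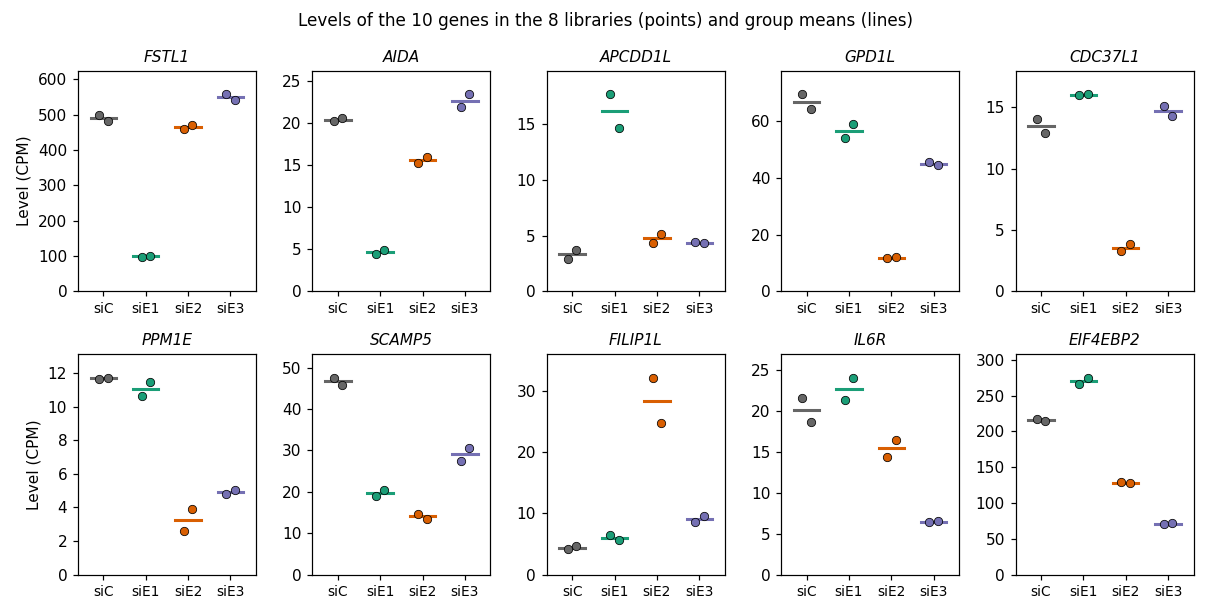
Each panel plots one gene, with its level in CPM on a linear axis from 0, 1 point per library and a line at the mean of each group. FSTL1 and AIDA are lowest with siE1, GPD1L, CDC37L1, PPM1E and SCAMP5 with siE2, and IL6R and EIF4EBP2 with siE3. GPD1L, PPM1E and SCAMP5 are below the controls with each siRNA, PPM1E only just so with siE1.

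The siE2 genes were GPD1L, CDC37L1, PPM1E, SCAMP5 and FILIP1L. GPD1L encodes a cytosolic protein related to glycerol 3-phosphate dehydrogenase that also affects the cardiac sodium channel. It was at 69.6 and 64.4 CPM under siC, 54.3 and 59.0 in the siE1 pair, 11.6 and 12.0 in the siE2 pair, and 45.6 and 44.7 in the siE3 pair. All 6 ESRRA siRNA libraries lay below the controls, and the siE2 pair far below the rest. The log2 fold changes were -0.24 (SE 0.0628), -2.50 (SE 0.0762) and -0.57 (SE 0.0644), which left 17.6% of the control level with siE2 and 67.4% with siE3. GPD1L has 2 siE2 sites in the 3′ UTR, one of them with all 8 bases. It also holds both siE3 words.

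CDC37L1, a co-chaperone related to CDC37 that binds HSP90 and HSP70, was low in the siE2 libraries alone. Its level was 14.1 and 12.9 CPM under siC, 16.04 and 16.06 in the siE1 pair, 3.24 and 3.88 in the siE2 pair, and 15.1 and 14.3 in the siE3 pair. The siE1 and siE3 libraries lay above both controls and the siE2 pair below them. Fitted log2 fold changes were 0.25 (SE 0.0990), -1.92 (SE 0.126) and 0.12 (SE 0.101).

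PPM1E, a phosphatase of the PP2C family that acts on PAK kinases, was low with siE2 and siE3. It was at 11.7 and 11.7 CPM under siC, 10.6 and 11.5 in the siE1 pair, 2.59 and 3.93 in the siE2 pair, and 4.80 and 5.06 in the siE3 pair. The siE1 libraries were just under the controls and the siE2 and siE3 libraries well below, with siE2 lowest. The log2 fold changes were -0.08 (SE 0.127), -1.84 (SE 0.155) and -1.25 (SE 0.145). The siE2 libraries differed from siE3 by -0.60 (SE 0.178). Its 3′ UTR holds a siE2 word, ATCTGCT, and both siE3 words, TCTCAGA and ATCTCAG. Without siE2 replicate 1 or without siE3 replicate 2, PPM1E was no longer set apart by siE2, and 4 rather than 5 listed genes were.

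SCAMP5, a secretory carrier membrane protein, did not follow the single-siRNA description. Its level was 47.6 and 45.8 CPM under siC, 18.9 and 20.5 in the siE1 pair, 14.7 and 13.4 in the siE2 pair, and 27.5 and 30.7 in the siE3 pair. No group overlapped another, and every ESRRA siRNA library lay below both controls. Fitted log2 fold changes were -1.24 (SE 0.0789), -1.73 (SE 0.0830) and -0.68 (SE 0.0759), leaving 42.1%, 30.1% and 62.3% of the control level. SCAMP5 holds the siE1 word GACCAGA and both siE2 words, and no siE3 word.

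FILIP1L, related to the filamin A interacting protein FILIP1, was higher with each siRNA and most with siE2. It stood at 4.11 and 4.63 CPM under siC, 6.42 and 5.67 in the siE1 pair, 32.2 and 24.7 in the siE2 pair, and 8.59 and 9.65 in the siE3 pair. The groups did not overlap, and the siE2 mean was 6.52 times the control mean. The log2 fold changes were 0.46 (SE 0.176), 2.70 (SE 0.144) and 1.06 (SE 0.166). FILIP1L overlaps CMSS1 (C3orf26 in the table) in RefSeq, and as no source used here gives the strand setting, their reads cannot be told apart where they overlap. C3orf26 was lower with siE2 (-0.28, edgeR adjusted p = 3.8e-04). The 3′ UTR searched for FILIP1L had 91 bases.

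The siE3 genes were IL6R and EIF4EBP2. IL6R encodes the ligand-binding chain of the interleukin 6 receptor, which signals through IL6ST (gp130), JAK kinases and STAT3. Its level was 21.7 and 18.7 CPM under siC, 21.4 and 24.1 in the siE1 pair, 14.4 and 16.5 in the siE2 pair, and 6.40 and 6.53 in the siE3 pair. The siE3 libraries were lowest, siE2 lay under the controls, and siE1 overlapped them. Fitted log2 fold changes were 0.18 (SE 0.0998), -0.38 (SE 0.105) and -1.64 (SE 0.120), so 32.0% of the control level was left with siE3. IL6R also holds the siE2 word TCTGCTA.

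EIF4EBP2 encodes a 4E-binding protein, which holds back cap-dependent translation until mTORC1 phosphorylates it. It was at 217 and 214 CPM under siC, 266 and 275 in the siE1 pair, 129.6 and 127.5 in the siE2 pair, and 70.2 and 71.7 in the siE3 pair. The 4 groups did not overlap, with siE1 above the controls and siE2 between the controls and siE3. Log2 fold changes were 0.33 (SE 0.0425), -0.75 (SE 0.0438) and -1.60 (SE 0.0459), and 59.6% and 32.9% of the control level was left with siE2 and siE3. Its 3′ UTR of 6871 bases holds both words of siE2 as well as the siE3 word TCTCAGA.

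**Figure D3:**
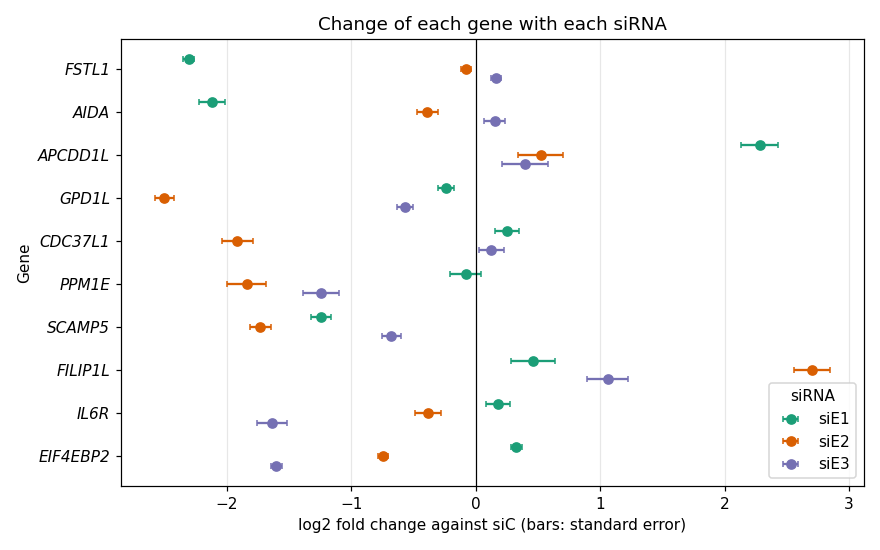
Points give the log2 fold change of each listed gene against siC with siE1, siE2 and siE3, and bars give the standard error. Values run from -2.50 for GPD1L to 2.70 for FILIP1L, both with siE2, while FSTL1, AIDA and APCDD1L stand out with siE1.

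All 10 listed genes were set apart by at least 1 siRNA by the 3 tests above, as were 45.3% of all tested genes. By direction, 10.8% of all tested genes were set apart lower and 8.01% higher by siE1, 12.8% and 10.8% by siE2, and 5.22% and 4% by siE3. By siRNA, siE1 set apart 4 of them (FSTL1, AIDA, APCDD1L and, higher, EIF4EBP2), siE2 5 and siE3 3 (IL6R, EIF4EBP2 and, higher, FSTL1), against 18.9%, 23.6% and 9.22% of all tested genes. The list was drawn from these contrasts, so nothing is read from those counts. Both libraries of a group lay below the other 6 for 2 listed genes with siE1, 4 with siE2 and 2 with siE3, and above them for 3, 1 and 2. Among all tested genes the shares were 17.7%, 19.2% and 10.4% below and 15.4%, 18.6% and 9.58% above. Ordered by the difference from the mean of the other 2 siRNAs, FSTL1 was at place 2 and AIDA at 9 of 1452 lower siE1 genes. CDC37L1 was at 3, GPD1L at 4, PPM1E at 63 and SCAMP5 at 235 of 1712 lower siE2 genes. IL6R was at 17 and EIF4EBP2 at 25 of 699 lower siE3 genes. Among higher genes APCDD1L was at 27 of 1073 for siE1 and FILIP1L at 19 of 1446 for siE2.

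The genes closest in pattern were taken as those at the smallest distance over the 3 log2 fold changes against siC, among genes with a mean of at least 5 CPM. FSTL1 and AIDA were near each other (distance 0.36), as were IL6R and EIF4EBP2 (0.39). The nearest to FSTL1 was TFB1M, a mitochondrial rRNA methyltransferase, at -2.03, 0.02 and -0.03 for siE1, siE2 and siE3. AIDA was followed by SSU72, an RNA polymerase II phosphatase, at -1.84 with siE1. The nearest to CDC37L1 was JKAMP at 0.26, -1.73 and 0.26, and to PPM1E CHIC1 at -0.11, -1.57 and -1.47.

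Other members had looser neighbours in pattern. GPD1L had GGCT at a distance of 0.86, SCAMP5 had RAPGEF5 at 0.55 and APCDD1L had STYK1 at 0.55. The nearest to FILIP1L was the amino acid transporter SLC38A4, at 0.86, 2.66 and 1.24, followed by the Notch modifier LFNG and the transcription factor SNAI2. Next to IL6R stood YIPF6 and FBXO21, with siE3 at -1.37 and -1.18.

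Genes beside the listed ones on the chromosome were compared next. Flanking genes were the nearest tested gene on each side in the RefSeq order, at 0.006 to 387 kb, with untested genes passed over. Of these 20, 10 were called (edgeR adjusted p under 0.05) in the direction of the listed gene with its siRNA. Another 4 were called in the other direction and 6 not at all. Of all tested genes, 50.3%, 56.4% and 42.1% were called with siE1, siE2 and siE3. Among all tested genes, 25.8%, 28.5% and 20.8% were lower and 24.5%, 27.9% and 21.3% higher. Of the 20, 1 changed by at least 1 on the log2 scale in the same direction, CMTM8, next to GPD1L, at -1.46 with siE2 (edgeR adjusted p = 1.9e-06), -0.35 with siE1 and -0.41 with siE3. AIDA lies between MIA3 (-0.14 with siE1, edgeR adjusted p = 0.058) and BROX (0.19, edgeR adjusted p = 0.021). TRIM37, which overlaps PPM1E in RefSeq, was at -0.53 with siE2 (edgeR adjusted p = 4.3e-07). TRIM37 was at 0.17 and 0.03 with siE1 and siE3 (edgeR adjusted p = 0.0086 and 0.66). As the strand setting is not given, reads of TRIM37 and PPM1E cannot be told apart where these genes overlap.

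Families and pathways of the listed genes were then tested. The list for FILIP1L also held genes near it on the chromosome. The 10 lists held 225 different genes, 200 of them tested, and 60.0%, 61.0% and 51.5% of these were called with siE1, siE2 and siE3, against 50.3%, 56.4% and 42.1% of all tested genes. Their medians were 0.05, 0.01 and 0.03 on the log2 scale, against medians between -0.01 and 0.01 for all tested genes.

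With siE1, 6 of 15 tested genes around FSTL1 rose and 2 fell (median 0.14). SPARC, a matrix glycoprotein of the same family, rose by 1.44 (SE 0.114, edgeR adjusted p = 7.3e-08), opposite in sign to FSTL1. With siE2 and siE3, SPARC was at -0.12 and 0.49 (edgeR adjusted p = 0.48 and 0.0050). TLR4, the endotoxin receptor, was at 0.14 with siE1 and rose with siE2 and siE3, by 0.96 and 0.55 (edgeR adjusted p = 4.4e-08 and 3.5e-05). Of 13 genes around AIDA, with axins and JNK kinases, 2 rose and 3 fell with siE1 (median 0.02). The JNK pathway kinase MAP3K1 rose by 0.64 with siE2 (edgeR adjusted p = 1.3e-06), which set it apart, and was at 0.15 and -0.12 with siE1 and siE3. ACSL1, a fatty acid activating enzyme, fell with each siRNA, by 0.22, 0.84 and 0.94 (edgeR adjusted p = 0.014, 1.2e-07 and 8.2e-08).

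Of 16 tested Wnt receptors and regulators listed with APCDD1L, 3 rose and 5 fell with siE1, while 10 rose and 3 fell with siE2 (medians -0.06 and 0.33). The receptor FZD5 went from 18.0 to 7.66 CPM with siE1 (-1.23, SE 0.0981, edgeR adjusted p = 7.5e-08). FZD5 was also lower with siE2 and siE3, at -0.54 and -0.30 (edgeR adjusted p = 1.3e-04 and 0.014). FZD2 went from 101.2 to 203.2 CPM with siE2 (1.01, SE 0.04996, edgeR adjusted p = 4.4e-10) and was at 0.10 and -0.10 with siE1 and siE3.

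With siE2, 3 of 18 tested glycerol phosphate genes around GPD1L rose and 6 fell (median -0.08). The mitochondrial enzyme GPD2 fell by 0.58 with siE2 and rose with siE1 and siE3, by 0.44 and 0.40 (edgeR adjusted p = 6.1e-07, 8.7e-06 and 3.4e-05), and GPD1 had at most 2 counts. The glycolytic TPI1 fell from 490.1 to 282.8 CPM with siE2 (-0.79, SE 0.0467, edgeR adjusted p = 2.2e-09). With siE1 and siE3, TPI1 was at 0.08 and -0.22 (edgeR adjusted p = 0.14 and 0.0011). LPIN1, a phosphatidate phosphatase, rose by 0.46 with siE3 (edgeR adjusted p = 4.3e-07). With siE1 and siE2, LPIN1 was at 0.08 and 0.15 (edgeR adjusted p = 0.12 and 0.0053).

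In the HSP90 system around CDC37L1, 16 of 27 genes fell and 2 rose with siE2 (median -0.32, against 0.01 for all tested genes). HSP90AA1 was at -0.62 (edgeR adjusted p = 4.0e-07), CDC37 at -0.40 (edgeR adjusted p = 1.1e-06) and HSPA4 at -0.58 (SE 0.0396, edgeR adjusted p = 1.0e-08). With siE1 and siE3, HSPA4 was also lower, at -0.41 and -0.19 (edgeR adjusted p = 6.3e-07 and 0.0013). HSP90AA1 was at -0.21 and -0.12 there (edgeR adjusted p = 0.0077 and 0.13) and CDC37 at 0.03 and -0.16 (edgeR adjusted p = 0.64 and 0.0051). HSP90B1 went the other way with siE2, at 0.58 (SE 0.0397, edgeR adjusted p = 1.0e-08), and was set apart higher by it. With siE1 and siE3, HSP90B1 was at 0.19 and 0.23 (edgeR adjusted p = 8.0e-04 and 2.1e-04). The mitochondrial TRAP1 fell with each siRNA, by 0.66, 0.64 and 0.41 (edgeR adjusted p = 5.6e-09, 5.8e-09 and 1.3e-06). With siE1 12 of the 27 fell and 4 rose, and with siE3 10 fell and 3 rose.

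Among PP2C phosphatases and PAK partners, 7 of 31 rose and 7 fell with siE2 (median 0.04). PAK2, a substrate kinase of PPM1E, fell by 0.72 (SE 0.0466, edgeR adjusted p = 5.7e-09) and PPM1G by 0.64 (SE 0.0445, edgeR adjusted p = 1.2e-08). With siE1 and siE3, PAK2 was at -0.20 and -0.07 (edgeR adjusted p = 0.0021 and 0.22). PPM1G was at -0.11 and -0.33 there (edgeR adjusted p = 0.056 and 2.7e-05). PPM1F, the closest relative of PPM1E, rose with siE2 and siE3, by 0.50 and 0.59 (edgeR adjusted p = 3.9e-07 and 1.2e-07).

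Of the 4 other SCAMP genes, 2 rose and 1 fell with siE2. SCAMP1 rose with each siRNA, by 0.53, 0.97 and 0.67 (edgeR adjusted p = 1.9e-05, 2.0e-08 and 2.3e-06), and SCAMP2 was at -0.02, 0.02 and 0.03. SCAMP3 was at -0.43 with siE2 (edgeR adjusted p = 2.9e-05), and SCAMP4 was at 0.31 there (edgeR adjusted p = 1.1e-04). SCAMP3 was at 0.17 and -0.10 with siE1 and siE3 (edgeR adjusted p = 0.025 and 0.22). With siE1 and siE3, SCAMP4 was at 0.36 and -0.17 (edgeR adjusted p = 3.6e-05 and 0.021). Over the list of secretory carriers, 7 of 18 rose and 2 fell with siE2. NECAP1, an endocytic adaptor, fell by 1.06 with siE2 (SE 0.0597, edgeR adjusted p = 1.3e-09), and the SNARE SNAP23 rose by 0.76 (SE 0.0499, edgeR adjusted p = 6.7e-09). SNAP23 went the other way with siE1, at -0.43 (edgeR adjusted p = 6.6e-06), and was at 0.09 with siE3 (edgeR adjusted p = 0.20). NECAP1 was at -0.07 and 0.19 with siE1 and siE3 (edgeR adjusted p = 0.29 and 0.014).

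Of 10 tested genes listed with FILIP1L, 3 rose and 2 fell with siE2. This list also held genes near FILIP1L on the chromosome, among them COL8A1, TBC1D23 and C3orf26. The 2 that fell were C3orf26 and COL8A1, so no listed filamin was called lower. FLNA, the filamin, rose by 0.44 (edgeR adjusted p = 3.9e-06), and FILIP1 had 4 to 9 counts per library and was not tested. With siE1 and siE3, FLNA was at 0.39 and 0.12 (edgeR adjusted p = 1.9e-05 and 0.076). The small heat shock protein HSPB1 rose with each siRNA, by 1.18, 0.86 and 1.10 (edgeR adjusted p = 2.4e-09, 6.4e-08 and 8.7e-09). COL8A1, the nearest tested gene before FILIP1L on the chromosome, fell by 1.41, 0.34 and 0.89 with siE1, siE2 and siE3 (edgeR adjusted p = 2.9e-10, 2.4e-04 and 4.1e-08).

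Around IL6R, 11 of 26 partners rose and 3 fell with siE3 (median 0.21), and 16 rose and 3 fell with siE2 (median 0.39). The signal-transducing chain IL6ST rose with each siRNA from 165 CPM to 307, 324 and 276 (log2 fold changes 0.89, 0.97 and 0.74, edgeR adjusted p = 3.2e-10, 1.3e-10 and 4.0e-09). LIFR, the leukaemia inhibitory factor receptor, rose with each siRNA, by 0.91, 1.40 and 0.42 (edgeR adjusted p = 4.4e-09, 4.6e-11 and 2.7e-05). STAT3 fell by 1.11 with siE2 (SE 0.0437, edgeR adjusted p = 4.5e-11) and was set apart by it, at -0.11 with siE1 and 0.24 with siE3.

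For cap binding and mTORC1, listed with EIF4EBP2, 6 of 28 rose and 9 fell with siE3 (median -0.03). EIF4EBP1, the better known 4E-binding protein, was at 0.13 with siE3 (edgeR adjusted p = 0.052), and EIF4EBP3 had at most 1 count. EIF4EBP1 was lower with siE1 and siE2, at -0.14 and -0.19 (edgeR adjusted p = 0.027 and 0.0048). EIF4E, the cap-binding protein itself, was at -0.36 with siE3 and -0.54 with siE2 (edgeR adjusted p = 0.0028 and 5.2e-05). PDCD4, an inhibitor of the helicase EIF4A, rose with each siRNA from 16.8 CPM to 30.1, 59.5 and 44.0 (edgeR adjusted p = 2.4e-07, 4.4e-11 and 1.5e-09). LARP1 fell by 0.81 with siE2 (SE 0.0528, edgeR adjusted p = 6.6e-09) and rose by 0.22 and 0.24 with siE1 and siE3 (edgeR adjusted p = 0.0022 and 0.0015).

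**Figure D4:**
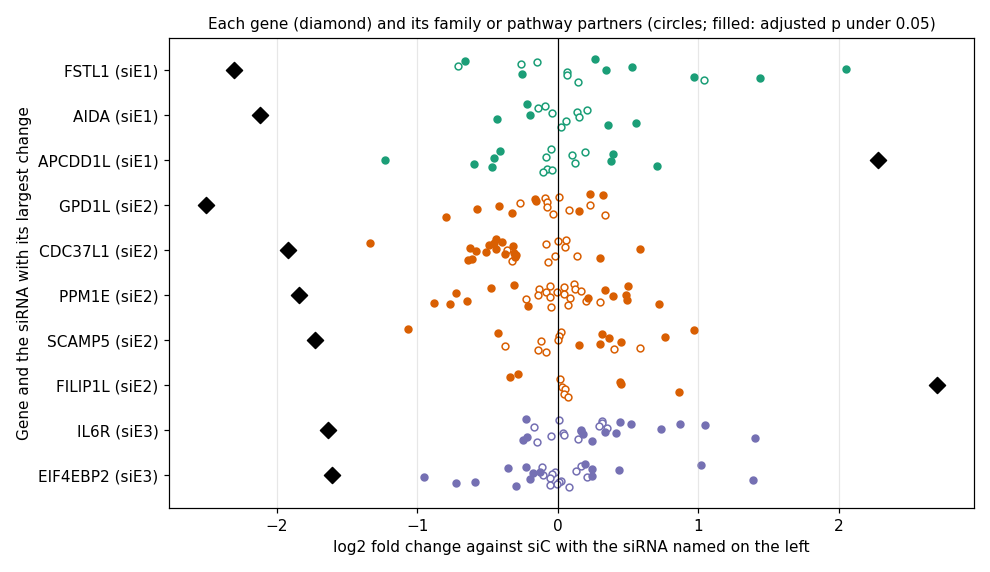
For each listed gene (diamond), circles give the log2 fold changes of its family or pathway partners against siC. The siRNA is named on the left, and circles are filled where the edgeR adjusted p was under 0.05. The FILIP1L row also holds genes near it on the chromosome. The diamonds run from -2.50 for GPD1L to 2.70 for FILIP1L; the listed genes were chosen for large changes, so their distance from the partners is no finding.

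Promoters (250 bases before to 50 after the start, RefSeq GRCh38.p14) were matched by symbol for 8 of the 10 listed genes, APCDD1L and CDC37L1 being without an entry. The ERR response element TNAAGGTCA, on both strands, was in none of the 8 and in 0.951% of 35116 promoters. That says only that these letters are not in this window.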

How the data were processed

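The authors' deposited table gives whole-number counts per gene symbol for 8 libraries, plus columns of the linear fold (ratio) and of adjusted p-values by siRNA, per the file headers. TopHat 1.3.3 and HTSeq, with DESeq and the build hg19, are listed in the submitters' processing notes. No source used here gives the annotation, strand setting or filters. The deposited ratio and p-value columns were not used for any result.

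Groups came from the sample titles. In edgeR 4.0.16 (R 4.3.3), filterByExpr kept 13395 of 23368 symbols, TMM scaled the libraries, and one quasi-likelihood model over all libraries (4 residual degrees of freedom) gave each siRNA against siC and each pair of siRNAs, with Benjamini-Hochberg adjustment and a threshold of 0.05. SE is the log2 fold change over the root of F. The test was tried on simulated counts with known changes, as was the word order.

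The listed genes, the partner lists and the naming rule were chosen with earlier results of these data known. Named were the listed genes, the nearest 3 genes in pattern, flanking genes, and the 2 partners of each list with the smallest p; direct homologues, binding partners and pathway components outside that rule were named after their values were seen.

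For the 3′ UTR, GENCODE v29 transcripts (GRCh38, not the authors' build; principal, then longest) were matched for 12330 of 13395 tested genes. Shifted words were chosen after seeing the order. Of the marker genes and 3′ UTR sites examined, 1 each is not reported here. The alternatives are given in the closing section (limma 3.58.1, DESeq2 1.42.0). Python 3.11.15, numpy 2.4.6, pandas 2.3.3 and matplotlib 3.10.9 were used.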

Additional observations from a re-analysis of the deposited data

How the results depend on the processing

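Alternatives were DESeq2 size factors, no filter, the DESeq2 Wald test, limma-voom, the replicate number as a block, only the groups compared, and leaving out each library. Over these 14 and the crossed block below, 20 partner changes kept direction in all 300 values. They were the 2 of each list with the smallest p, each in the contrast of that p, so this was likely beforehand. The other partner values given above were not followed one by one. Among the listed genes, PPM1E with siE2 ran from -2.17 to -1.58 and IL6R with siE1 from 0.07 to 0.28. Genes set apart were 1844 to 2372 (siE1), 2343 to 3030 (siE2) and 1019 to 1105 (siE3) with a library left out, against 2525, 3158 and 1235. With the replicate block they were 2305, 2912 and 1108, and genes changed against siC 6334, 7225 and 5221 against 6744, 7560 and 5643. Differences between replicates 1 and 2 correlated at 0.26 for siC with siE3 and 0.36 for siE1 with siE2, and at -0.34 to -0.39 across these 2 sets, so the numbers as labelled do not pair the libraries. With the block crossed in siE1 and siE2, an alternative chosen after seeing the data, genes set apart were 3077, 3772 and 1664 and genes changed 7740, 8394 and 6795. FSTL1 was not set apart by siE3 without siC replicate 2 (2 rather than 3 listed genes). The leading words were the same against siC, where the siE1 difference was -0.18, and with a minimum of 300 genes. Within groups, chi-square over its degrees of freedom was 3.11 to 5.12, so no 2 replicates agree within sampling noise. With 2 libraries per group, the spread rests on 4 residual degrees of freedom, shared across genes by the model.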
